A study of Homo sapiens with 4 samples.

Results

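The ERBB receptor genes EGFR, ERBB2 and ERBB3 and the EGF-family ligand genes AREG, EREG, HBEGF, TGFA, BTC and NRG1 were followed in 4 RNA sequencing libraries. These 9 genes were taken by symbol from a count table of 56303 genes, and all 9 were found there and passed the filter on low counts. The libraries came from EJ and T24T, both human bladder cancer cell lines grown in culture. In each line, 1 library came from cells that had received hsa_circ_0008399, a circular RNA (EJ circ, T24T circ), and 1 from cells given the vector alone (EJ vector, T24T vector). The labels give no dose, no time after transfection and no number of clones or cultures. Within a line there is therefore no replicate check, and the circular RNA is replicated only by its use in both lines. As background, cell line registries record some EJ stocks as derivatives of the T24 line, from which T24T was also derived. How independent these lines are was not tested.

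The ERBB receptors are membrane tyrosine kinases that act as pairs. EGFR binds AREG, EREG, HBEGF, TGFA and BTC, and several of these ligands also bind ERBB4. NRG1 binds ERBB3 and ERBB4, ERBB2 has no known ligand of its own and serves as the favoured partner, and ERBB3 has little kinase activity but recruits PI3-kinase. The ligands are made as membrane-bound precursors and released by ADAM metalloproteases, so mRNA levels do not give the amount of active ligand. In urothelium the system is known for its part in growth and wound repair, and EGFR and ERBB family members are often raised in bladder cancer.

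Total counts ranged from 14703455 in EJ circ to 18057768 in T24T circ. Of 6 epithelial markers, 4 had 10 or more counts in at least 1 library, with high keratin genes KRT7, KRT8 and KRT18. CDH1 had at most 3 counts. Of 8 luminal urothelial markers, 4 reached 10 counts in some library, UPK1A, UPK2, PPARG and FOXA1, and none passed 70. UPK3A was at 0 throughout and GATA3 had at most 1, and the list's summed level was 3.34 to 4.50 RPKM. Of 4 basal markers, CD44 alone reached 10 counts and KRT5 was at 0. Of 4 leukocyte markers, CD68 alone did, with 160 to 1111 counts, and PTPRC and CD3E were at 0. Of 4 fibroblast markers, COL1A1 alone did, with 4 to 16, and DCN and LUM were at 0, while none of 3 endothelial markers did. In bulk RNA a lower level can come from fewer cells that express a gene or from less RNA per cell, which cannot be told apart.

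Some exons are shared with other genes. ERBB2 shares 571 bases with MIEN1 and 194 with PGAP3, and EGFR shares 186 with EGFR-AS1, each on the other strand, and whether counting used strand is not stated. MIEN1 had between 486 and 723 counts per library. Reads of these shared stretches cannot be assigned from the table. ERBB3 shares 31 bases with RP11-603J24.9 on the same strand. In the count table no other gene listed at 1 locus shares exon bases with AREG, EREG, HBEGF, TGFA, BTC or NRG1.

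Levels were compared between genes as RPKM, reads scaled to gene length and to the library's total, as deposited. The length is 1 deposited value per gene, whichever of its transcripts is expressed, so the order of genes and their shares depend on it. In EJ vector EGFR had 6798 counts over 12511 bases and AREG 3119 over 1648. AREG, which encodes amphiregulin, had the highest level of the 9 genes in every library. It stood at 121 and 97.1 RPKM in the EJ libraries, vector first, and at 210 and 204 in those of T24T. EGFR came next in EJ, with 34.7 RPKM in vector and 27.5 in circ. In T24T, HBEGF (heparin-binding EGF-like growth factor) with 74.5 and 62.0 RPKM and TGFA (transforming growth factor alpha) with 24.1 and 23.3 lay between AREG and EGFR, which had 19.4 and 18.1. The order of the members was the same in vector and circ of a line and differed between the lines.

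The other receptors were lower. ERBB2 lay at 9.45 and 7.64 RPKM in EJ, again vector first, and at 8.88 and 7.87 in T24T. ERBB3 lay between 1.38 and 2.51 RPKM in the 4 libraries. NRG1, the neuregulin gene, was close to ERBB2, with 7.13 and 5.86 RPKM in EJ and 6.96 and 5.04 in T24T. The lines overlap in ERBB2 and NRG1. EREG (epiregulin) and BTC (betacellulin) were the lowest members in EJ, with at most 0.0224 and 0.217 RPKM. In T24T, EREG reached 2.91 and 2.85 RPKM and BTC 0.863 and 1.36. EREG and ERBB3 were neighbours in the T24T order, with 2.91 against 2.51 RPKM in vector. Within each of these neighbouring pairs 1 library per group gives no spread to judge the order by.

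**Figure D1:**
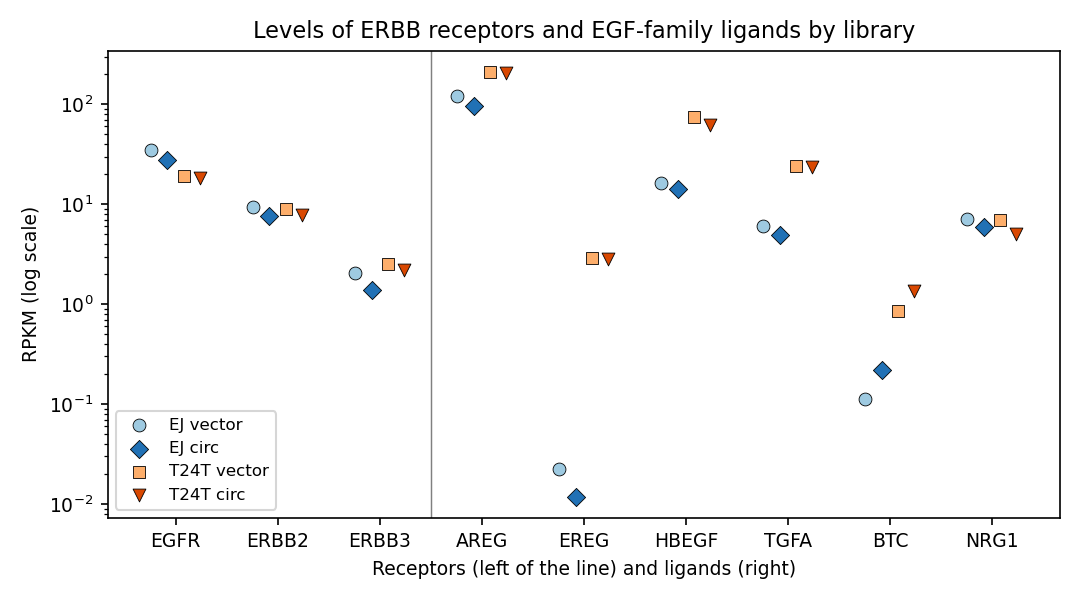
RPKM on a log axis for each of the 9 genes, with 1 point per library and receptors left of the grey line. AREG is highest in all 4 libraries, and EREG, HBEGF, TGFA and BTC have both T24T points above both EJ points, while EGFR has both below.

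Summed over the 6 ligands, RPKM was 151 and 122 in EJ, vector before circ, and 320 and 299 in T24T. AREG made up 80.3% and 79.3% of this sum in the EJ libraries and 65.8% and 68.4% in T24T. HBEGF took 10.8% and 11.6% in EJ against 23.3% and 20.7% in T24T, and TGFA 4.04% and 4.05% against 7.54% and 7.80%. The ligand transcripts of T24T were thus more mixed. The summed RPKM of the 3 receptors ran the other way, from 46.2 and 36.6 in EJ to 30.7 and 28.2 in T24T. EGFR made up 75.2% and 75.3% of it in EJ and 63.0% and 64.3% in T24T. These shares are descriptions of 4 libraries and were not tested.

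**Figure D2:**
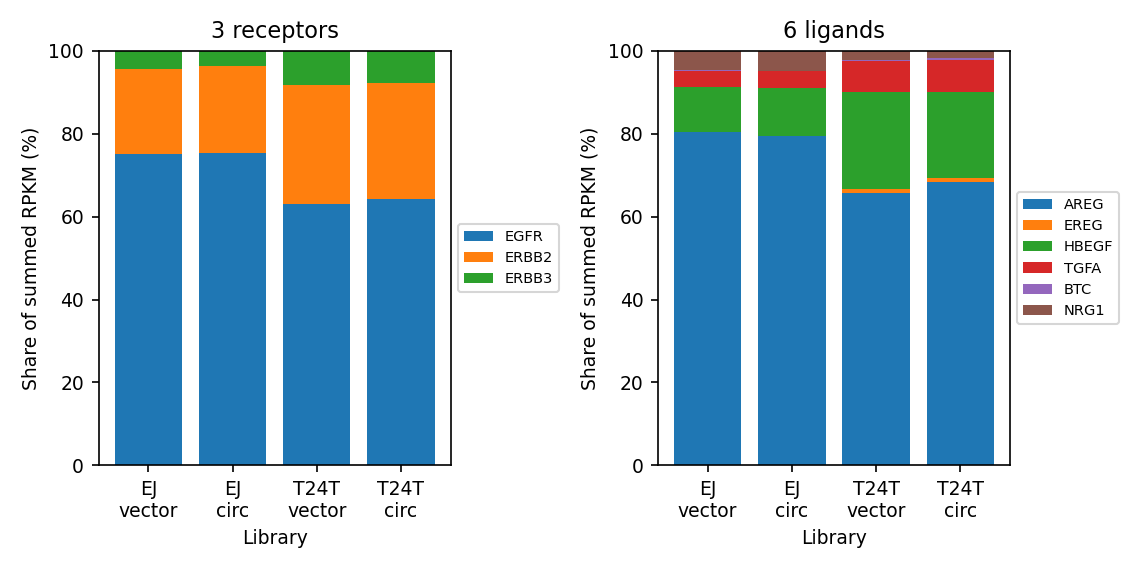
Stacked bars give the share in percent of the summed RPKM of the 3 receptors (left) and of the 6 ligands (right) in each library. AREG fills 79.3% to 80.3% of the ligand bar in EJ and 65.8% to 68.4% in T24T, where HBEGF and TGFA take more.

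T24T and EJ were then compared over the 17689 genes that passed the filter, with the transfection as a block, so that each line had 2 libraries. Most ligands were higher in T24T, and the main receptor was lower. Of the 9 genes, 6 were higher in T24T and 1 was lower at an adjusted p under 0.05 in edgeR's quasi-likelihood test, and 2 did not pass. EREG and BTC, among the 6, passed the filter on low counts only through their T24T libraries, so their calls are no independent support. A stricter filter that drops both left 4 higher. Among all genes tested, 21.9% were higher and 19.5% lower. The members' median log2 fold change was 0.998, beside 0.013 for all genes tested. Each ± below is the standard error of that fit. The ± and the p-values take most of their error from other genes and cover only these libraries, so neither measures a spread between replicate cultures. Counting intervals cover counting error alone.

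HBEGF, whose product also serves as a cell-surface ligand before shedding, was counted 771 and 632 times in EJ, vector before circ as throughout, and 3794 and 3379 times in T24T. The T24T libraries were thus far above those of EJ, with a log2 fold change of 2.22 ± 0.09 (n = 2 libraries per line, edgeR adjusted p = 4.65e-20). TGFA had 473 and 362 counts in EJ and 2017 and 2090 in T24T. It was higher by 2.17 ± 0.10 (edgeR adjusted p = 7.95e-19). The ratio was close to that of HBEGF, and it was 4.11-fold in the vector libraries (95% counting interval 3.72 to 4.55) and 4.94-fold (4.42 to 5.54) in the circ libraries.

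AREG had 3119 and 2354 counts in EJ and 5845 and 6079 in T24T, a log2 fold change of 0.998 ± 0.09 (edgeR adjusted p = 2.75e-11). The groups did not overlap, and the log2 fold change of AREG was smaller than those of HBEGF, TGFA, EREG and BTC. BTC had 5 and 9 counts in EJ and 41 and 69 in T24T, a log2 fold change of 2.80 ± 0.38. It passed the filter on low counts only through T24T. Its intervals were wide, 7.91-fold (3.13 to 25.6) in vector and 6.56-fold (3.26 to 14.9) in circ.

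EREG stood apart by its near absence from EJ. It had 2 and 1 counts in EJ against 281 and 294 in T24T. The ratio in the vector libraries was 135-fold, with a 95% counting interval of 37.2 to 1124. In the circ libraries it was 252-fold (44.8 to 9970). The fitted log2 value of 7.34 ± 0.33 depends on how the very low EJ counts are handled. EREG passed the filter on low counts only through T24T, so its adjusted p is no support and is not given.

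EGFR went the other way. It had 6798 and 5064 counts in EJ against 4083 and 4100 in T24T, and every T24T library was below every EJ library. The log2 fold change was -0.66 ± 0.08 (edgeR adjusted p = 1.22e-07). EGFR was 1.73-fold lower in T24T in the vector libraries (1.66 to 1.80) and 1.44-fold lower (1.38 to 1.504) in the circ libraries. ERBB3 had 275 and 176 counts in EJ and 366 and 344 in T24T. It was higher in T24T by 0.54 ± 0.13 (edgeR adjusted p = 0.000964), a call that DESeq2 did not make (adjusted p = 0.108).

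ERBB2 and NRG1 did not pass this test. ERBB2 had 1525 and 1160 counts in EJ and 1546 and 1466 in T24T, and its log2 fold change was 0.04 ± 0.09 with a 95% interval of -0.14 to 0.21. NRG1 had 1263 and 976 counts in EJ and 1330 and 1031 in T24T, and its log2 fold change was -0.06 ± 0.09 (-0.24 to 0.12). For both genes the ranges of the lines overlapped. The T24T libraries also had higher KRT8, with 13405 and 14341 counts against 2259 and 2164 in EJ. CD68 was higher too, with 951 and 1111 against 160 and 216. Other genes of the same marker lists did not all follow. KRT18 was higher in T24T, but KRT7 was not, with 6093 and 8118 counts against 6981 and 8566 in EJ. In the leukocyte list PTPRC and CD3E had 0 counts and CD14 at most 2. The part of such marker differences in the ligand differences was not tested.

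**Figure D3:**
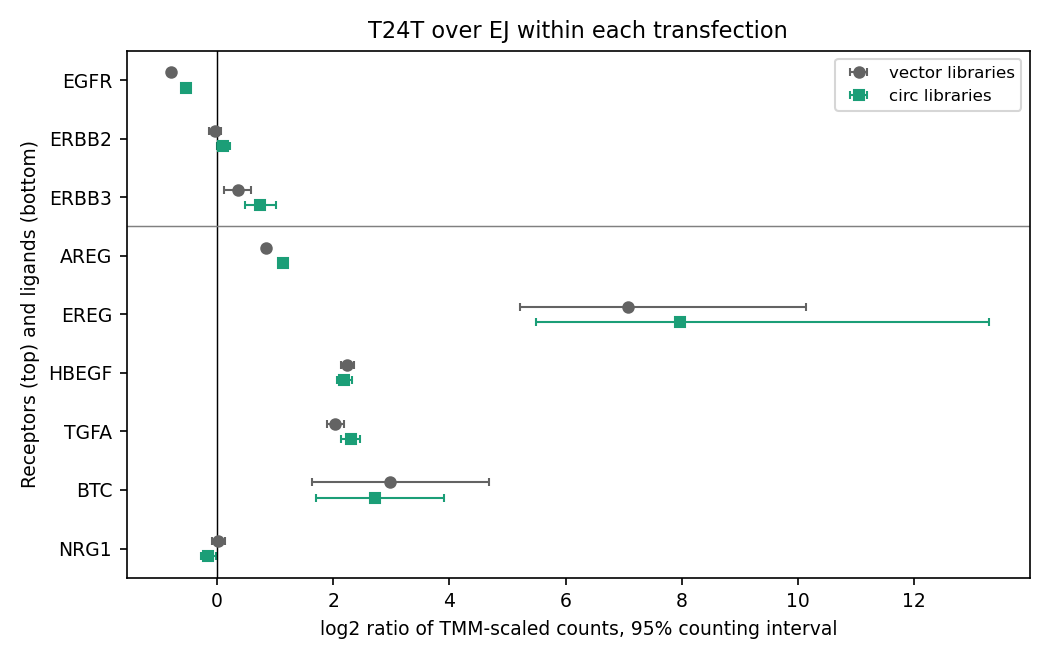
Log2 ratio of T24T over EJ for each member, from TMM-scaled counts, with 1 point for the vector libraries and 1 for the circ libraries and bars for the 95% counting interval. EREG, HBEGF, TGFA, BTC and AREG lie right of 0 in both, EGFR lies left of 0 in both, and ERBB2 and NRG1 lie near 0.

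EREG, AREG and BTC are neighbours on chromosome 4, and this block was described because all 3 were higher in T24T. EREG lies at 74365143 to 74388751 and AREG at 74445134 to 74455009, both on the plus strand, and BTC at 74744759 to 74794686 on the minus strand, in the hg38 coordinates of the deposited table. The starts of EREG and AREG are 79.99 kb apart. EPGN, the epigen gene that precedes EREG, had 0 counts in every library. Of the clone-named genes between members, RP11-727M10.1 had 0 counts in every library and AC142293.3 had 0 and 3 counts in EJ and 6 and 8 in T24T. The pseudogene HSPE1P23, which follows BTC, also had 0 counts.

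A window of 700 kb to each side of EREG was looked at after these values were seen. It held 29 genes listed at 1 locus, of which 14 had 0 counts throughout and 11 were tested. Of the latter, 9 were higher in T24T and 0 were lower by the edgeR test, beside 21.9% and 19.5% of all genes tested. The 3 ligands among the 9 were the reason for describing the block, so this count is no test of the window. EREG, BTC, PARM1 and CXCL6 passed the filter on low counts only through T24T. Besides the 3 ligands the 9 genes were PARM1, with 6 and 2 counts in EJ and 50 and 49 in T24T, and 5 neutrophil chemokine genes. Among them, CXCL2 had 37 and 70 counts in EJ and 2720 and 2845 in T24T, and CXCL8 had 303 and 254 against 11405 and 10850. MTHFD2L, a folate enzyme gene that lies between CXCL2 and EREG, had 231 and 211 counts in EJ and 245 and 237 in T24T. Its log2 fold change was -0.01 ± 0.13 (edgeR adjusted p = 0.955), so the higher level in T24T was not shared by every gene of the window.

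**Figure D4:**
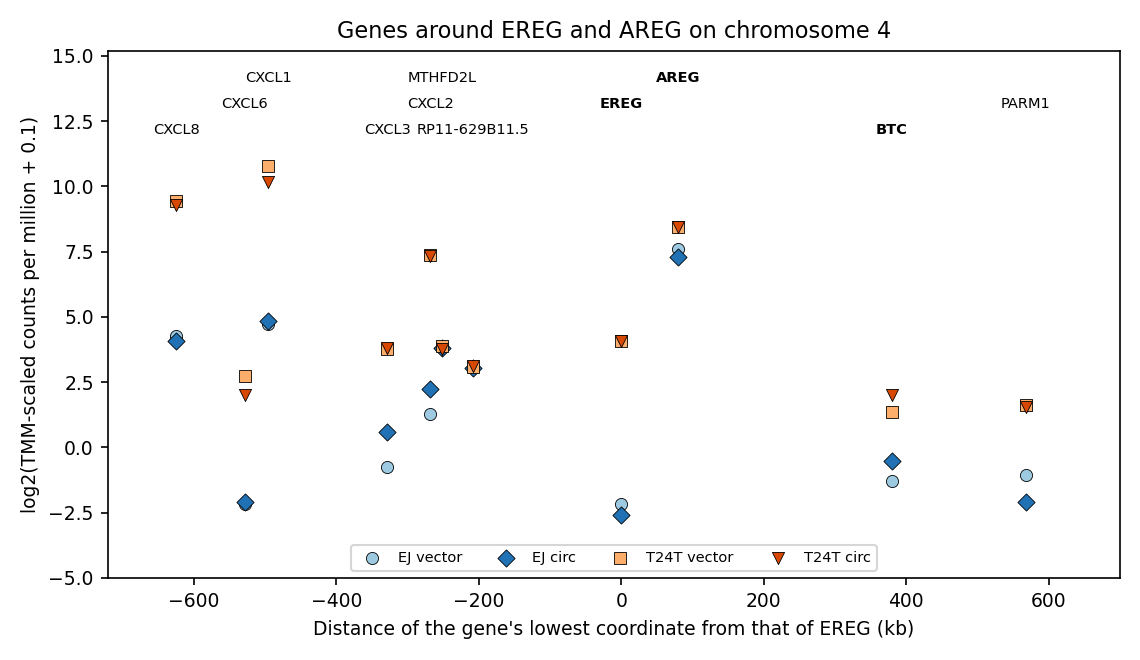
Each gene with 10 or more counts in some library is placed by the distance of its lowest coordinate from that of EREG in kb, with log2(TMM-scaled CPM + 0.1) on the vertical axis, 1 point per library and the members in bold. T24T points lie above EJ points at 9 of the 11 genes, while MTHFD2L and RP11-629B11.5 lie together in all 4 libraries.

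The promoter windows of EREG, AREG and BTC are shown because these neighbours were all higher in T24T, and that of HBEGF because it had the smallest adjusted p of the members between the lines. Each window holds 250 bases before and 50 from the annotated start, 5′ to 3′ on the gene's strand, from RefSeq on GRCh38.p14. Windows were found for 7 of the 9 members. EREG lies at chr4:74364895-74365194 and AREG at chr4:74444886-74445185, both on the plus strand, and BTC at chr4:74794474-74794773 and HBEGF at chr5:140346554-140346853, both on the minus strand. Capitals mark matches on either strand to any of 5 motifs. The letters searched were TATAAA for the core promoter box bound by the TATA-binding protein and TGACGTCA for the cyclic AMP response element (CRE). They were GGGCGG for the box bound by SP factors (GC box), GGAATG for the sites of TEAD factors and TGANTCA for those of the AP-1 factors. In HBEGF the GC box matches that start at -63 and at -58 share 1 base, and no other matches shown overlap.
EREG: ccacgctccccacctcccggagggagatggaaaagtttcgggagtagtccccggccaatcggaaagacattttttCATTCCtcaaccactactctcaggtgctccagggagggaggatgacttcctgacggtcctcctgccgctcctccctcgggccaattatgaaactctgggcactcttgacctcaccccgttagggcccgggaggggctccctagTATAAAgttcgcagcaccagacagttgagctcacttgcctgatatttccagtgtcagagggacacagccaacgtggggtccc
AREG: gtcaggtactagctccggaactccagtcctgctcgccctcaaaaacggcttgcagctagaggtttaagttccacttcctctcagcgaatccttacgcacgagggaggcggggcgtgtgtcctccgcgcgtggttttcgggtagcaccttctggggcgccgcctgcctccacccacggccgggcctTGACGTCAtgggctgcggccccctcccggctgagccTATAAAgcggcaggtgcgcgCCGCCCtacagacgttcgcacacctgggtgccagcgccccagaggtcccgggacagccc
BTC: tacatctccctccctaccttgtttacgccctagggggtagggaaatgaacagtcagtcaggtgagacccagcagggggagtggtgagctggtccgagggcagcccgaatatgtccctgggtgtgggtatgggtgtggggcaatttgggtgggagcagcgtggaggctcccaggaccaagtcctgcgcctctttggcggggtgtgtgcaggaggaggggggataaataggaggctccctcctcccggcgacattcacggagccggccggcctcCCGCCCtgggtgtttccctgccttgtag
HBEGF: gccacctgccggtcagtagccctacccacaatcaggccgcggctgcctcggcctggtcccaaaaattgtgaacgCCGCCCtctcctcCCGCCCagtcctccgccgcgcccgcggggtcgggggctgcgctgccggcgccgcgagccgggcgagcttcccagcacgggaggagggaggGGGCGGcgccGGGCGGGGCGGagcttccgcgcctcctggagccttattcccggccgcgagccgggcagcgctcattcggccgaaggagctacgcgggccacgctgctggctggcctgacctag

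The neighbouring EREG and AREG windows each held TATAAA, starting at -32 in EREG and at -29 in AREG relative to the start of the gene. Over all 35116 promoter windows of this length, 11.5% held it on either strand. AREG also held the CRE letters at -65, which 1.85% of windows hold. EREG held a TEAD match at -175 (14.0% of windows). BTC held 1 GC box match, AREG 1 and HBEGF 5 (45.0% of windows hold at least 1). HBEGF and BTC held no TATAAA, CRE or TEAD letters, and none of the 4 windows held the AP-1 letters (7.71% of windows). No motif was shared by all 4 windows. TGFA, also higher in T24T but outside the block, had a pair of windows, not printed, of which 1 held 4 GC box matches and neither held another motif. These letters were not limited to members higher in T24T. A window of EGFR, lower in T24T, held TATAAA at -146 and -36, a TEAD match and AP-1 matches. The ERBB2 window held an AP-1 match. A match describes letters only and shows no binding.

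The series was made to look for genes downstream of the circular RNA, and the circ libraries were compared with the vector libraries with the line as a block. Of the 9 genes, 1 fell, NRG1, and 0 rose by the edgeR test. Among all genes tested 5.56% fell and 7.13% rose, so 1 call among 9 genes is near the background. At an unadjusted p under 0.05, 5 members were lower and 1 was higher in circ, beside 12.2% lower and 13.6% higher among all genes tested. DESeq2 called 0 members, and it gave no adjusted p for EREG and BTC. The members' median log2 fold change was -0.20, beside 0.0018 for all genes tested.

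NRG1 (chromosome 8, 31639386 to 32767959, plus strand, hg38), the ERBB3 and ERBB4 ligand gene, had 1263 counts in EJ vector and 976 in EJ circ. In T24T it had 1330 in vector and 1031 in circ. Both circ libraries were below both vector libraries. Its log2 fold change was -0.36 ± 0.09 (n = 2 lines, edgeR adjusted p = 0.00613). NRG1 was 1.21-fold lower in EJ (95% counting interval 1.11 to 1.32) and 1.36-fold lower in T24T (1.25 to 1.48). The call was lost in DESeq2 (adjusted p = 0.155), with limma on log2(RPKM + 1) (0.180) or log2(RPKM + 0.1) (0.158), and without the line block (adjusted p = 0.99999). Over the fits of both lines its adjusted p ranged from 0.00111 to 0.99999, and the log2 value from -0.38 to -0.32. By itself EJ gave -0.27 and T24T -0.44.

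No receptor passed the test. EGFR had a log2 fold change of -0.20 ± 0.08 (edgeR adjusted p = 0.122), ERBB2 of -0.22 ± 0.09 (0.0842) and ERBB3 of -0.34 ± 0.13 (0.0819). Each was lower in circ than in vector within both lines after scaling. ERBB3 passed with RLE size factors (adjusted p = 0.0463). In EJ ERBB3 had 275 counts in vector and 176 in circ, 1.46-fold lower (1.20 to 1.78). In T24T it had 366 and 344, 1.12-fold lower (0.965 to 1.30).

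Of the EGFR ligands, none passed either. HBEGF had a similar ratio in both lines, with log2 values of -0.19 in EJ and -0.24 in T24T and -0.22 ± 0.09 over both (edgeR adjusted p = 0.0916). AREG had -0.31 in EJ and -0.02 in T24T (-0.16 ± 0.09, edgeR adjusted p = 0.240), and TGFA -0.29 and -0.02 (-0.13 ± 0.09, 0.395). EREG had a ratio in T24T alone, with 281 counts in vector and 294 in circ, a log2 value of -0.0099. Over both lines EREG had -0.02 ± 0.19 (edgeR adjusted p = 0.962). BTC was the 1 member with more reads in circ in both lines, with 9 against 5 counts in EJ and 69 against 41 in T24T. It was 1.60-fold higher in T24T (1.07 to 2.41) and 1.93-fold in EJ (0.579 to 7.31), and over both lines 0.71 ± 0.33 (edgeR adjusted p = 0.167). At these depths the BTC difference was not called.

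**Figure D5:**
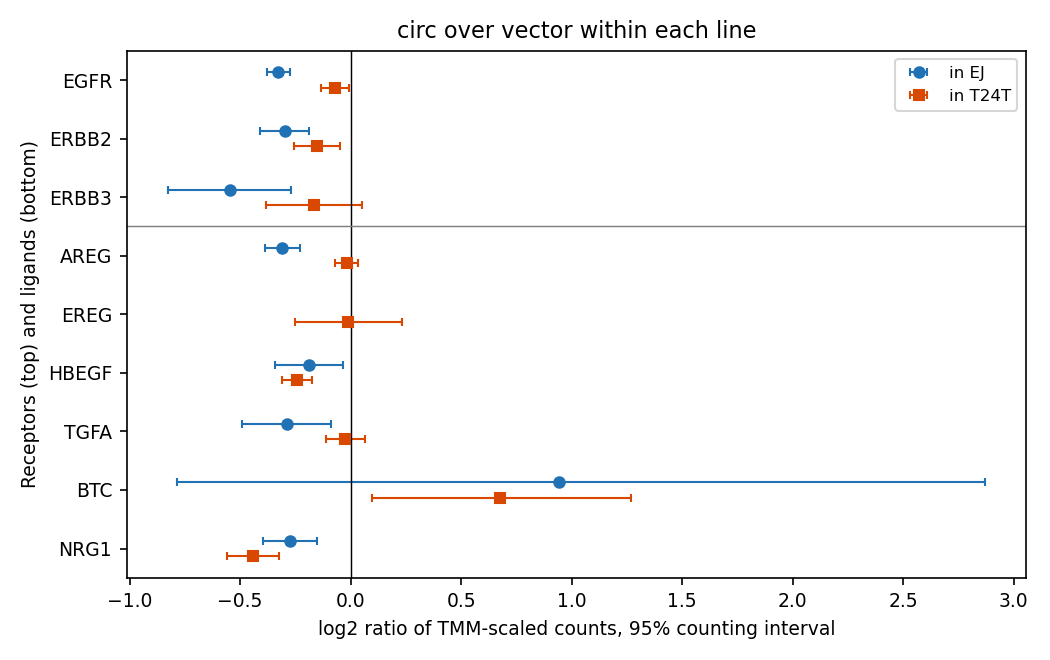
Log2 ratio of circ over vector for each member from TMM-scaled counts, in EJ and in T24T, with bars for the 95% counting interval. NRG1, HBEGF, ERBB2 and EGFR lie left of 0 in both lines, AREG and TGFA lie left of 0 in EJ and at 0 in T24T, BTC lies right of 0, and EREG has no ratio in EJ.

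The ratios were also read within each line. In EJ, 7 of the 8 members with a ratio were lower in circ with a counting interval that left out no change, and the median log2 ratio was -0.29. Among all genes with a ratio in EJ, 16.5% were lower and 17.0% higher by this rule. In T24T, 4 of 9 were lower in this sense, EGFR, ERBB2, HBEGF and NRG1, and 1, BTC, was higher, with a median of -0.07. Among all genes with a ratio in T24T, 17.7% were lower and 19.7% higher. For comparison, genes with 100 or more counts in every library had lower and upper quartiles of -0.16 and 0.16 in EJ and of -0.17 and 0.17 in T24T. The EJ ratios of EGFR (-0.33), ERBB2 (-0.30), AREG (-0.31), TGFA (-0.29), NRG1 (-0.27), ERBB3 (-0.55) and HBEGF (-0.19) were thus below the lower quartile. In T24T those of NRG1 (-0.44) and HBEGF (-0.24) were.

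The response in T24T minus that in EJ had counting intervals above 0 for 4 members and below 0 for none, beside 10.9% above and 8.49% below among all genes with reads in every library. It was 0.26 for EGFR (0.18 to 0.34), 0.29 for AREG (0.20 to 0.38), 0.26 for TGFA (0.045 to 0.49) and 0.38 for ERBB3 (0.026 to 0.74) on the log2 scale. For NRG1 it was -0.17 (-0.34 to 0.0031) and for HBEGF -0.05 (-0.22 to 0.12). These intervals compare 4 libraries and hold no replicate error, so a difference in response between the lines was not tested.

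Of the 6 remaining receptor and ligand genes of the family, ERBB4, NRG2 and NRG4 passed the filter on low counts. ERBB4 had 49 and 31 counts in EJ and 0 in both T24T libraries. With a floor of 3 counts per library it was at least 16.9-fold lower in T24T in vector and at least 12.1-fold lower in circ. ERBB4 passed the filter only through EJ. In T24T the floor allows up to 0.0137 RPKM. In EJ it stood at 0.241 and 0.162 RPKM. NRG2 had 235 and 253 counts in EJ and 265 and 290 in T24T, with no call in either comparison. NRG4 had 17, 14, 9 and 6 counts in the same order, but 38.1% of its length is shared with FBXO22 on the other strand. EGF had 1 read in all, in T24T circ, and NRG3 had 0 counts in every library. Circ against vector gave 0 calls among the 3 tested genes of this group in edgeR (0 at an unadjusted p under 0.05) and 0 in DESeq2.

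Genes that release or carry the ligands gave 1 fall and 0 rises among 12 tested in circ against vector (4 lower and 0 higher at an unadjusted p under 0.05, 0 in DESeq2). By the edgeR test 5.56% of all genes tested fell and 7.13% rose. The fall in the list was that of ADAM10, a sheddase of BTC and EGF precursors, with 1679 counts in circ against 2625 in vector in EJ and 1639 against 1814 in T24T (-0.39 ± 0.09, edgeR adjusted p = 0.00325). The list's median was -0.11. Between the lines, 2 of these 12 genes were higher in T24T and 6 were lower, beside 21.9% and 19.5% of all genes tested. RHBDF2, which encodes iRhom2, a partner of ADAM17, was higher in T24T by 0.95 ± 0.12, as was the metalloprotease gene ADAM19 (1.43 ± 0.16). ADAM10 (-0.42 ± 0.09), ADAM9 (-0.34 ± 0.08) and ADAM12 (-3.23 ± 0.54) were lower. ADAM12 had only 36 and 18 counts in EJ and 4 and 2 in T24T. ADAM17, named after its value was seen, the main sheddase of AREG, TGFA and HBEGF precursors, had -0.25 ± 0.09 (edgeR adjusted p = 0.0222). So the higher ligand transcripts of T24T stood beside lower transcripts of several sheddases.

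Of 31 tested genes of the first signalling steps, 2 rose and 3 fell with circ, beside 12.7% called in either direction among all genes tested. The list's median was -0.07, and DESeq2 called none. PIK3R1, a regulatory subunit of PI3-kinase, rose by 0.54 ± 0.13 (edgeR adjusted p = 0.00456), and the phosphatase gene PTPN11 by 0.26 ± 0.08 (0.0408). MAPK3, which encodes ERK1, fell (-0.42 ± 0.11, edgeR adjusted p = 0.00723), as did the kinase gene AKT2 (-0.32 ± 0.09). Between the lines 6 were higher in T24T, led by the adaptor genes NCK1 (0.58 ± 0.12) and SHC1 (0.35 ± 0.08) and by AKT1 (0.28 ± 0.08). Another 5 were lower, led by AKT2 (-0.54 ± 0.09), PIK3R3 (-0.71 ± 0.15) and NRAS (-0.43 ± 0.09). Of all genes tested 21.9% were higher in T24T and 19.5% lower.

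Of 25 genes that damp or sort the receptors, 1 rose and 4 fell with circ, and DESeq2 called none. Among all genes tested 7.13% rose and 5.56% fell. The receptor-type phosphatase genes PTPRK (-0.47 ± 0.11, edgeR adjusted p = 0.00586) and PTPRJ (-0.33 ± 0.09, 0.00890), the ubiquitin ligase gene ITCH (-0.34 ± 0.09) and LRIG3 (-0.62 ± 0.19) fell. The phosphatase gene PTPN1 rose (0.30 ± 0.08, edgeR adjusted p = 0.0146). Between the lines 10 were higher in T24T and 5 lower, beside 21.9% and 19.5% of all genes tested. ERRFI1, which encodes the EGFR inhibitor MIG6, had 1265 and 999 counts in EJ and 3554 and 4628 in T24T (1.71 ± 0.10, edgeR adjusted p = 1.39e-15). LRIG1, another inhibitor of ERBB receptors, had 3 and 5 counts in EJ and 78 and 83 in T24T. ITCH was higher as well (1.01 ± 0.09), and the ubiquitin ligase gene NEDD4 (-0.73 ± 0.09), SOCS4 (-0.71 ± 0.12) and STAM (-0.65 ± 0.13) were lower.

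Of 26 genes that EGF is known to induce within hours, 8 rose and 1 fell with circ, beside 7.13% and 5.56% of all genes tested. The list was chosen with earlier results of these data known. Its counts of calls, with circ or between the lines, are therefore no test of the list. The list's median was 0.12, and DESeq2 called 3 of the rises. Among the 8 were EGR1 (log2 ratio -0.03 in EJ and 2.36 in T24T) and DUSP1 (-0.27 and 1.44), which did not rise in EJ. ATF3 rose by 1.98 ± 0.14, FOS by 2.02 ± 0.21, KLF10 by 1.19 ± 0.12 and JUN by 0.78 ± 0.09, all transcription factor genes that many other stimuli also induce. ETV4, an ETS factor gene, fell (-0.36 ± 0.10, edgeR adjusted p = 0.0154). No EGFR ligand gene was called in the same comparison, and the part of the ligands in the rises above was not tested. Between the lines 17 were higher in T24T and 2 lower, beside 21.9% and 19.5% of all genes tested. IER3 (3.09 ± 0.09), PHLDA1 (1.97 ± 0.09) and VEGFA (2.12 ± 0.09) had the smallest adjusted p, and ATF3 (-1.23 ± 0.14) and EGR1 (-0.87 ± 0.24) were the lower genes. EGR1 had 895 and 820 counts in EJ and 198 and 1081 in T24T, so only its T24T vector library lay below EJ.

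Of 16 tested genes for other receptor tyrosine kinases, 0 rose and 0 fell with circ by edgeR (4 lower and 0 higher at an unadjusted p under 0.05, 0 by DESeq2). By edgeR 7.13% of all genes tested rose and 5.56% fell. The list's median was -0.10. Between the lines 9 were higher in T24T and 3 lower, beside 21.9% and 19.5% of all genes tested. The collagen receptor gene DDR1 (1.55 ± 0.09), EPHA2 (1.06 ± 0.09) and MET (0.83 ± 0.08), the hepatocyte growth factor receptor gene, were higher. FGFR1 (-2.20 ± 0.18), FGFR4 (-0.37 ± 0.11) and FGFR3 (-1.39 ± 0.54) were lower, like EGFR. FGFR3 had only 17 and 12 counts in EJ and 5 and 7 in T24T.

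Likeness to other genes was measured as the distance between log2 CPM (counts scaled to library total and TMM factor) centred over the 4 libraries, among 12030 named genes with 50 or more counts in a library. The genes nearest to AREG were SUMF1 (distance 0.034) and EEF1A2 (0.037), and those nearest to TGFA were PLCD1 (0.077) and BCAM (0.090). HBEGF was nearest to KIAA1549L (0.136) and SLC16A3 (0.137). BTC was nearest to the noncoding RNA genes LINC01270 (0.201) and LUCAT1 (0.227). With 4 points per gene many genes can lie near by the split between lines alone, so these are descriptions.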

How the data were processed

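RNA was extracted as total RNA with TRIzol, and the submitters' processing notes list hg38, HISAT2 and Trimmomatic. The tools' versions, the counting tool, the annotation and the use of strand are not given in the sources used here. The authors deposited read counts for 56303 genes and RPKM values for 29817. All RPKM values (100%) equalled the deposited count over gene length and library total, within a relative tolerance of 1e-06. Columns were matched by sample description, and 0 sample columns were left out. The column headers and sample descriptions name the second line T24, while the sample titles, followed here, name it T24T.

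Genes with 10 or more counts in a library and 20 or more in all (17689) were scaled by TMM and fitted with edgeR 4.0.16 in R 4.3.3 (quasi-likelihood test, line and transfection as terms, Benjamini-Hochberg over all 17689 genes at 0.05). The fit has 1 residual and 30.5 prior degrees of freedom, so its errors are mostly pooled over genes. Libraries of the same line belong together, hence the line block. Ratios between libraries carry exact 95% binomial intervals (scipy 1.17.1), and log2 ratios compared across scalings used a prior count of 2. Reads carry no molecular identifiers, so intervals cover counting error only. Alternatives were RLE or library-size scaling, no or a stricter filter (at least 50 counts in a library of each line), DESeq2 1.42.0, limma 3.58.1 (voom, and log2(RPKM + 1) or log2(RPKM + 0.1)), leaving out the block, prior counts of 0.5 and 10, and either line by itself. The edgeR code was tested on simulated data.

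The members and the 6 pathway lists were chosen with earlier results of these data known. Always named were the members and the other family genes. From each other list up to 4 called genes per direction with circ and 3 between lines, by adjusted p, were named, with neighbours of members and the 2 genes most like each member whose log2 CPM spanned over 1. ADAM17, DUSP1, KRT7, KRT8, KRT18, CD14, CD68, CXCL2, CXCL6, CXCL8, MTHFD2L, PARM1 and RP11-629B11.5 were chosen after their values were seen. Some genes that this rule names are not reported here.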

Additional observations from a re-analysis of the deposited data

How the results depend on the processing

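The higher T24T levels of AREG, EREG, HBEGF, TGFA and BTC and the lower EGFR kept direction and call under every alternative fitted; the stricter filter removed EREG and BTC, leaving 4 calls higher in place of 6. EREG's log2 value of 7.34 was 1.93 with limma on log2(RPKM + 1) and 4.67 on log2(RPKM + 0.1), and BTC's 2.80 was 0.85 on the former, since a pseudocount compresses low genes. ERBB3 lost its higher call in DESeq2, with limma on log2(RPKM + 1) (log2 0.32) or log2(RPKM + 0.1) (0.46), and without the block (0.53), which left 5. ERBB2, not called, turned from 0.04 to -0.0245 with library size alone and to -0.0219 and -0.0237 in the RPKM fits. For circ against vector, members that fell numbered 2 with RLE scaling (NRG1 and ERBB3) and 0 with DESeq2, both RPKM fits and no line block, against 1. Over the pathway lists, 11 genes rose and 9 fell; 3 rose and 0 fell with DESeq2, and 0 rose and 0 fell with both RPKM fits and without the block. Of all genes, 1262 rose and 984 fell, 181 and 153 with DESeq2, and 0 and 0 without the block (397 at an unadjusted p under 0.05) or with limma on log2(RPKM + 1) (3588). The comparison of circ with vector is paired by line through the block, with 1 residual degree of freedom. No paired analysis was possible by replicate number, because each group has 1 library. Low counts limit EREG and BTC in EJ and ERBB4, ADAM12 and FGFR3 in T24T. Within-line ratios stayed inside their counting intervals under all scalings, prior counts and pseudocounts run.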
